A study of Homo sapiens with 21 samples.

Results

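Of 34260 H3K4me3 regions found in both replicate peak lists of CAMA1 cells, 2612 (7.62%) overlapped no H3K27ac peak of either replicate list, and 31648 overlapped at least 1. The 2612 regions were chosen by that rule alone: a merged stretch on chromosomes 1 to 22 and X holding a peak of both H3K4me3 lists, with no base shared with any row of either H3K27ac list. CAMA1 is an established human breast cancer line, labelled as estrogen receptor-positive and FGFR1-amplified and used at a passage below 10, so every library came from 1 line. ChIP-seq peak lists were used for 7 groups of 2 replicates each: H3K4me3, H3K27ac, Pol II S5P, FOXA1 and FGFR1 in untransfected cells, FGFR1 after siFOXA1 and FGFR1 after siNT. The siFOXA1 and siNT cells were collected 72 h after transfection. The labels describe all cells as kept without estradiol for 48 h before collection. The labels do not say whether the 2 replicates of a group were grown apart, so differences between them may be no more than technical. The H3K4me3 lists held 41399 and 38624 peaks, the H3K27ac lists 154358 and 145991.

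H3K4me3, trimethylation of lysine 4 on histone H3, is laid down at gene starts, mostly where CG dinucleotides are dense. H3K27ac, acetylation of lysine 27 on the same histone, marks active promoters and enhancers, and Pol II S5P is RNA polymerase II in its initiating form, phosphorylated on serine 5 of its tail repeat. Promoters of developmental genes that are silent in a cell type commonly carry H3K4me3 without acetylation, often beside the Polycomb mark H3K27me3, which was not analysed here. FOXA1 is the forkhead factor that opens chromatin for the estrogen receptor in luminal breast cells. FGFR1 is a receptor tyrosine kinase that can enter the nucleus.

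The sequences shown are the 250 bases before an annotated start, from RefSeq on GRCh38.p14, read 5′ to 3′ with every CG dinucleotide in capitals. They were picked after the values were seen, to show dense and sparse CG content at strongly marked starts without H3K27ac, and a gene whose starts fall into both classes. RORB has 23 CG dinucleotides, NRP2 has 29 and RSPO3 has 8. The outer start of GATA3, without H3K27ac, has 11, and an inner start of the same gene, inside an H3K27ac-marked region, has 30. The other GATA3 starts in H3K27ac-marked regions have 16, 15, 26 and 4, so they lie on both sides of 11.
RORB, without H3K27ac, chr9:74497085-74497334, + strand: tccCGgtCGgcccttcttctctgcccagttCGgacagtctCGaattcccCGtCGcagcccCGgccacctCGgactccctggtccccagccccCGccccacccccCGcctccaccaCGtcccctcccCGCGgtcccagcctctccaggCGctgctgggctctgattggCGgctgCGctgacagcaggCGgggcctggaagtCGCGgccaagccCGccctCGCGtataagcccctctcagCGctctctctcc
NRP2, without H3K27ac, chr2:205682251-205682500, + strand: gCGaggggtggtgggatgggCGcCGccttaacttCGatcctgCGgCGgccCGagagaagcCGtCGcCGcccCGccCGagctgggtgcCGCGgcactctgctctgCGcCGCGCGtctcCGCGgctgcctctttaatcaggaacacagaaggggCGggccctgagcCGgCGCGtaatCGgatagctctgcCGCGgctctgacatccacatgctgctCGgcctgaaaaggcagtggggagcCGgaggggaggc
RSPO3, without H3K27ac, chr6:127118421-127118670, + strand: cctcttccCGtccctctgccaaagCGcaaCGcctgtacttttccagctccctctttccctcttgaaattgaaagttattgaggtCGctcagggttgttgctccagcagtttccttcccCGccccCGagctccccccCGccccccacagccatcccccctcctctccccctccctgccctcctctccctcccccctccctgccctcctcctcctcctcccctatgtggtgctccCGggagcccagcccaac
GATA3 outer start, without H3K27ac, chr10:8045083-8045332, + strand: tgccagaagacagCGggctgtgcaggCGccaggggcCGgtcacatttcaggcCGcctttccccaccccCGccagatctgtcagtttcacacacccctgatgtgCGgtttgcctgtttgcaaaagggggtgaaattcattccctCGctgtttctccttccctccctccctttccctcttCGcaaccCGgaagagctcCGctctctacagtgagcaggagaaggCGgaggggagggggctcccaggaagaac
GATA3 inner start, with H3K27ac, chr10:8053391-8053640, + strand: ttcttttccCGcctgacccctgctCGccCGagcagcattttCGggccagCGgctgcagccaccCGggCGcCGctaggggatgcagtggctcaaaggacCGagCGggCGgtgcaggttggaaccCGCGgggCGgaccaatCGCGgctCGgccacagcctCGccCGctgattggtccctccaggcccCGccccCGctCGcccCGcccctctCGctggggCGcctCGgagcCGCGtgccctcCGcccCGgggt

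Of 1558 miRNA hairpins in the RefSeq table, 7 lay within 1 kb of an H3K4me3 region without H3K27ac and 275 within 1 kb of one with it. Counted by region, a miRNA gene end lay within 1 kb of 0.306% of regions without H3K27ac, against 0.97% of those with it. MIR9-1 and MIR9-2, 2 of the copies of the neural miRNA miR-9, were among the 7 and share their mature sequences. The region at MIR9-2 covered the hairpin, chr5:88666610-88667360, with H3K4me3 fold enrichments of 17.2 and 14.2. The region near MIR9-1, chr1:156421308-156422225, had folds of 19.9 and 15.6. The region at chr11:111514478-111515193, beside MIR34C, a target of p53, and the genes BTG4 and HOATZ, had folds of 22.4 and 20.1. MIR1469, MIR5691, MIR3180-1 and MIR3180-3 were the other hairpins. Mature sequences of miR-9 and miR-34c are given with the seed, bases 2 to 8, in capitals. For miR-34c only the 3p sequence is given, so the seed of its 5p sequence is not shown.
hsa-miR-9-5p: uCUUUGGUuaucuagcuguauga
hsa-miR-9-3p: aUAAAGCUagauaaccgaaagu
hsa-miR-34c-3p: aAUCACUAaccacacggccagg

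H3K4me3 at these regions was weaker and narrower than at regions with H3K27ac. The widths and H3K4me3 values are given as a description, because the rule was applied to these same peaks. Strength is the fold enrichment the authors' peak caller gave, read within its own list, with the strongest peak standing for a region. The median fold was 7.92 in list 1 and 7.66 in list 2 without H3K27ac, against 21.6 and 20.4 with H3K27ac. The median region ranked at percentile 43.6 and 40 of all peaks in its list without H3K27ac, against 60.9 and 57.9 with it. Median width was 486 bp without H3K27ac and 1180 bp with it. The strongest region without H3K27ac reached a mean percentile of 72.6, and regions above it all had H3K27ac. Across the 2612 regions the wider ones were also the stronger ones, with a Spearman rho of 0.663 between width and mean percentile.

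A minority was as strong as a typical acetylated region. In both lists 289 (11.1%) exceeded the median fold of regions with H3K27ac, and 118 (4.52%) were wider than their median. Of the 289 strong regions, 186 (64.4%) lay within 1 kb of a protein-coding gene end or at an annotated start, against 25.6% of the others. Most regions were far from any acetylation: the median distance to the nearest H3K27ac peak was 22600 bp, and 1752 regions (67.1%) lay over 10000 bp away. At the edge of the rule, the 5 nearest regions lay 2 to 25 bp from an H3K27ac peak and 42 lay within 100 bp. Just outside it, 54 regions overlapped H3K27ac by at most 100 bp, the least by 5 bp, and 1001 (3.16%) had H3K27ac in only 1 of its lists.

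**Figure D1:**
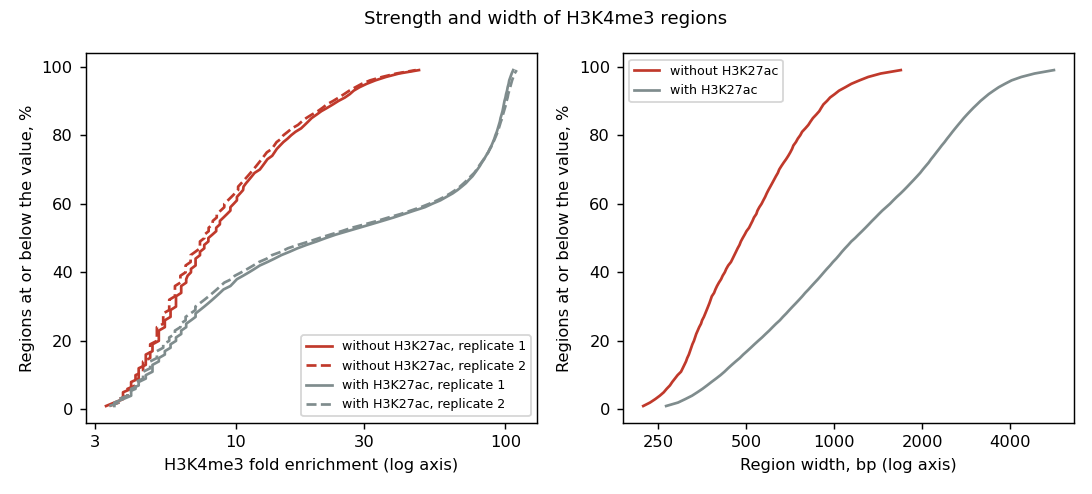
Cumulative share of H3K4me3 regions (y axis, %) against H3K4me3 fold enrichment in each replicate list (left, log axis) and region width in bp (right, log axis), for regions without H3K27ac in red and with H3K27ac in grey. The red curves lie left of the grey ones, with median folds of 7.92 and 7.66 without H3K27ac against 21.6 and 20.4 with it, and median widths of 486 against 1180 bp; lists 1 and 2 nearly coincide.

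Within 1 kb of a protein-coding gene end, of which the gene table gives both but not which is the start, lay 574 of the 2612 regions (22%, 95% Wilson interval 20.4 to 23.6%), against 37.6% of regions with H3K27ac and 36.4% of all H3K4me3 regions. This order depended on strength. When the regions with H3K27ac were restricted to the width and strength range of those without and reweighted to their 16 classes of width and strength, 11.8% lay at gene ends. The regions without H3K27ac were cut into 4 near-equal classes by strength, and acetylated regions within their range of width and strength, up to percentile 72.6, were sorted into the same classes. In the weakest class 13.6% of regions without H3K27ac lay at a gene end, against 3.72% of equally weak regions with it, and in the strongest class 39.8% against 31.4%. Counting annotated starts too, 780 regions (29.9%) were at genes without H3K27ac, against 44.7% with it and 43.6% of all. Ends of lncRNA genes lay within 1 kb of 265 regions without H3K27ac (10.1%), against 14.4% of those with it. Pseudogene ends lay within 1 kb of 68 (2.60%), against 1.83% with H3K27ac. Of the 1832 regions elsewhere, 656 (35.8%) lay inside a coding gene, against 52.0% with H3K27ac. All intervals here cover counting error only, and neighbouring regions are not independent.

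The strongest region at a gene was at SH3BGRL2, chr6:79630685-79632069, with H3K4me3 folds of 73.2 and 65.8. The lncRNA gene LOC105375334 followed with 71.8 and 66.9. TTC29, which encodes a protein of the sperm flagellum, had 72.7 and 64.9, and RORB, an orphan nuclear receptor of retina and brain, 64.7 and 61.8 over 2206 bp. FOXF1, a forkhead factor of lung and gut mesenchyme, shared a region with the lncRNA FENDRR at folds of 59.0 and 58.4. RSPO3, a secreted enhancer of Wnt signalling, had folds of 57.1 and 59.6. NRP2, a co-receptor for semaphorins and VEGF, had 53.8 and 51.6, and NKX2-8, a homeobox factor, had 50.5 and 52.7. The shared start region of the neuropeptide Y receptor genes NPY1R and NPY5R had 51.6 and 51.3. The potassium channel subunit gene KCNS2, LRRC74B and ZNF804B completed the 12 strongest, all with folds above 50 in both lists. Each of these 12 was found at similar strength in both lists, and none carried Pol II S5P or FGFR1 in both lists.

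The widest regions at genes were those of CYP26B1, LONRF3, BDNF, SOX5, GABRA2, PTPRT, ISL2 and LGR5. CYP26B1, which degrades retinoic acid, had a region of 3588 bp with folds of 51.3 and 50.5, and an H3K27ac peak 1743 bp away. BDNF, a neurotrophin, had 3282 bp with folds of 51.1 and 47.9 and no H3K27ac within 191106 bp. SOX5, an SRY-related factor of cartilage and neurons, had 2957 bp with folds of 40.7 and 39.7. GABRA2, a GABA receptor subunit, had 2747 bp with folds of 32.2 and 30.9. LGR5, the R-spondin receptor of stem cells, had 2312 bp with folds of 32.8 and 32.9. Of regions with no gene end or start within 1 kb, the strongest was chr6:28474292-28475595, 27701 bp from GPX6, with folds of 57.6 and 62.1. The next were near LEUTX, TSPAN11 and ANKRD60 and inside HSD17B12, with folds between 46.2 and 64.2.

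At the level of genes, 13303 of 19974 protein-coding genes had H3K4me3 within 1 kb of an end. Of these, 484 (3.64%) had it there only without H3K27ac, 12717 only with H3K27ac, and 102 had a region of each kind. The lists of genes by role were compared with that 3.64%, by counts and with no test, and carry different H3K4me3 strengths. Among the 2657 genes whose strongest end region was no stronger than the strongest region without H3K27ac, the share was 18.2%.

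Among the lists with at least 20 marked genes, those of development and of excitable cells had the larger shares. Of 57 marked homeobox developmental factors, 12 (21.1%) had H3K4me3 at their ends only without H3K27ac, among them NKX2-8, GSX1, SIX3, POU3F2 and NKX2-1. SIX3, a forebrain and eye factor, had folds of 29.8 and 28.6, and NKX2-1, the lung and thyroid factor, 24.9 and 23.3. Of 48 other developmental factors, 11 (22.9%) did so, with FOXF1, SOX5, GLI2, EBF1 and TBX20 the strongest. GLI2, the transcriptional effector of Hedgehog signalling, had folds of 30.6 and 29.2. Of 26 HOX cluster genes, 6 (23.1%) did so: HOXD11, HOXA11, HOXB7, HOXB8, HOXC8 and HOXB6. HOXD11 was the strongest of them, at 14.2 and 17.6, while HOXB7 and HOXB8 shared a region at 9.56 and 4.25. Of 50 secreted developmental signals, 9 (18.0%) did so, including GREM1, a BMP antagonist, at 15.8 and 11.6. FGF17 was also counted, at 13.7 and 12.8, in a region that also lay at an end of DMTN, so the mark may belong to either gene. SHH, the Sonic hedgehog ligand, had 9.83 and 8.79, and DHH, its desert counterpart, 8.19 and 7.94. No acetylated H3K4me3 region lay inside the gene either for 12 homeobox factors, 9 other developmental factors, 5 HOX genes and 8 secreted signals. Of the list members named, EBF1 and HOXB6 did have acetylated H3K4me3 inside, at folds of up to 13.1 and 13 for EBF1 and 50.8 and 49.1 for HOXB6. SOX5, GLI2 and HOXC8 had an H3K27ac peak in the gene but no acetylated H3K4me3 region.

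Of 55 genes of neuronal receptors and the synapse, 10 (18.2%) had only unacetylated H3K4me3 at their ends. GRM2, a metabotropic glutamate receptor, had folds of 31.4 and 35.7, and ADRA1A, an adrenergic receptor, 30.9 and 30.6. Of 41 voltage-gated channel genes, 8 (19.5%) did so, led by the potassium channel KCNQ3 at 47.5 and 46.5. Clustered protocadherins are the adhesion molecules that give neurons their surface identity. Of the lists with at least 20 marked genes, they had the highest share at gene ends, 10 of 27 (37.0%). Only 5 of the 27 (18.5%) also had no acetylated H3K4me3 region inside the gene, against 12 of 57 (21.1%) homeobox factors. The protocadherin regions were weak, from 10.1 and 11.1 at PCDHB7 to 4.37 and 3.97 at PCDHGB7, and neighbouring genes shared some of them. Germline genes counted 2 of 22, TEX15 and FIGLA, and olfactory receptor genes 3 of 7. The short list of neuronal markers counted 0 of 4, with 3 marked only with H3K27ac and 1 with a region of each kind. Restricted to the 18.2% strength range, the shares were 35.3% for homeobox factors, 39.3% for other developmental factors, 40% for HOX genes, 45.5% for protocadherins, 29.0% for secreted signals, 31.2% for neuronal genes, 33.3% for channels and 20% for germline genes.

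None of 79 marked cytosolic ribosomal protein genes and none of 30 proteasome subunit genes had only unacetylated H3K4me3 at their ends. The Wilson upper limits were 4.64% and 11.4%, which take in the 3.64% over all marked genes. Only 1 of the ribosomal protein genes and 0 of the proteasome genes fell in the strength range where unacetylated regions occurred. Of 404 marked genes of the numbered zinc finger family, 8 (1.98%) did so, 4 of 189 on chromosome 19, and within the strength range the share was 15.4%. ZNF528 and ZNF880 shared a region of 1509 bp at folds of 20.2 and 18.4. Marker genes of luminal breast cells and of other cell types were also counted. All 10 luminal breast genes had H3K4me3 with H3K27ac in the gene and 9 had Pol II S5P. Over all 19974 coding genes these shares were 71.4% and 42.4%. For basal or mesenchymal markers the counts were 6 and 1 of 8, for haematopoietic markers 2 and 0 of 6, and for neuronal markers 5 and 1 of 6.

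**Figure D2:**
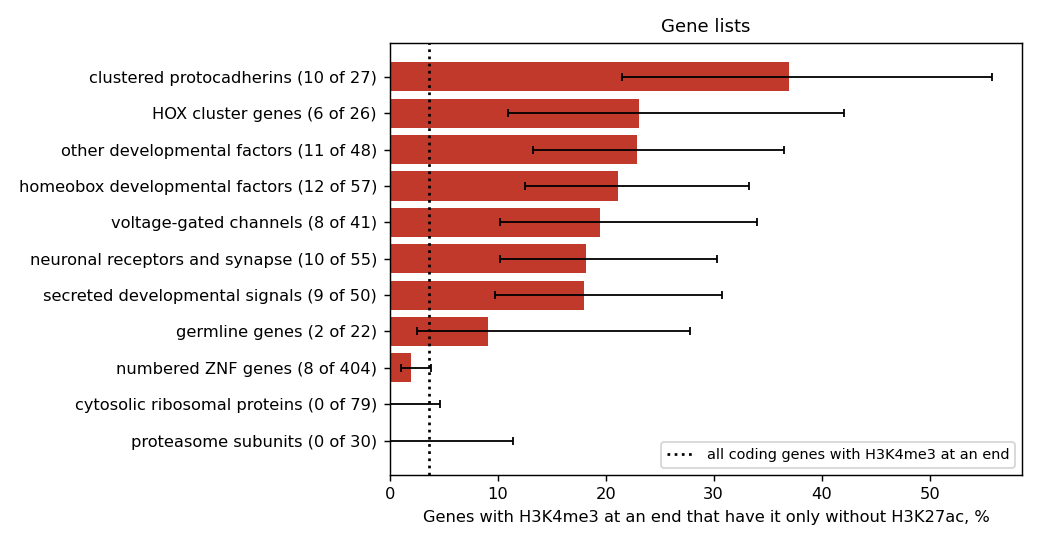
Share of genes (x axis, %) whose H3K4me3 at an end lay only in regions without H3K27ac, for each list with at least 20 marked genes, with 95% Wilson intervals and counts beside the names. The dotted line marks 3.64% over all marked coding genes; protocadherins, HOX, developmental, channel and synapse genes lie right of it, between 18.0% and 37.0%, and ribosomal protein and proteasome genes are at 0.

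A gene could be unacetylated at its ends and acetylated inside. Of the 484 genes, 112 had an H3K27ac-marked H3K4me3 region elsewhere in the gene, 372 (2.80% of marked genes) had none, and 276 had no H3K27ac peak at all in the gene. The strongest inner region lay a median of 55700 bp from the unacetylated one and carried Pol II S5P in 8 of the 112 genes. Inner regions were taken by position within the gene's span, so some may belong to another gene lying there. GATA3, the luminal lineage factor, was the 1 luminal marker in this class. Its outermost annotated start lay in chr10:8045006-8046092, with folds of 16.9 and 20.4 and none of Pol II S5P, FOXA1 or FGFR1. The next region into the gene, chr10:8049056-8051492, had H3K27ac, FOXA1 and folds of 65.5 and 67.8. The main region, chr10:8051657-8064211, spanned 12555 bp with folds of 91.2 and 92.2, H3K27ac, Pol II S5P and FGFR1. GNAL, a G protein alpha subunit gene, had an unacetylated outer region at 53.5 and 45.7. An acetylated, Pol II S5P-positive region lay 159779 bp away within its span, at 87.9 and 87.9. Whether that region belongs to GNAL was not tested. NPY1R was unacetylated at 51.6 and 51.3 beside NPY5R and acetylated at 87.9 and 82.2 further along the gene, without Pol II S5P. At CYP26B1 the 2 kinds lay 1190 bp apart, at 51.3 and 50.5 without H3K27ac and 59.0 and 60.4 with it.

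At annotated starts, 451 starts of 410 genes lay inside a region without H3K27ac. The strongest H3K4me3 summit lay within 250 bp of the start for 79.2% and 81.2% of them in lists 1 and 2, against 44.7% and 44.8% of 16541 starts in regions with H3K27ac. Among starts in regions with H3K27ac of like width and strength, the shares were 77.4% and 75.5%. The regions reached a median of 327 bp upstream and 416 bp downstream of the start without H3K27ac, against 1012 and 1409 bp with it. With H3K27ac, few summits lay in the 200 bp upstream of the start, 5.15% and 5.21% in lists 1 and 2, against 23.7% and 24.5% in the 200 bp downstream of it.

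These starts were CG-rich, though less so than all acetylated ones. The 250 bases before the start held a median of 17 CG dinucleotides without H3K27ac, 22 with H3K27ac and 3 at starts with no H3K4me3. At least 15 were present at 58.3% of starts without H3K27ac, 76.3% with it and 11.9% with no H3K4me3, against 43.0% of all 34961 starts. Among acetylated starts reweighted to the same width and strength, 40.9% had at least 15, so the order reversed. RORB and NRP2, printed above, lie above that limit, while RSPO3 and the outer start of GATA3 lie below it. Of motifs searched on both strands in the same 250 bases, the letters GGGCGG, a core of SP-family sites that contains a CG, were in 58.1% without H3K27ac, 69.1% with it, 44.9% of reweighted acetylated starts and 42.7% of all starts. The ETS-type CCGGAAG, which also contains a CG, was in 3.77% without H3K27ac, 14.9% with it, 5.89% reweighted and 8.52% of all. The TATA-type TATAAA was in 8.20% without H3K27ac, 4.49% with it, 8.91% reweighted and 10.7% of all. For the last 2 motifs the starts without H3K27ac thus lay nearer to the reweighted acetylated starts than to all acetylated starts. A match to letters is a description and no binding site.

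**Figure D3:**
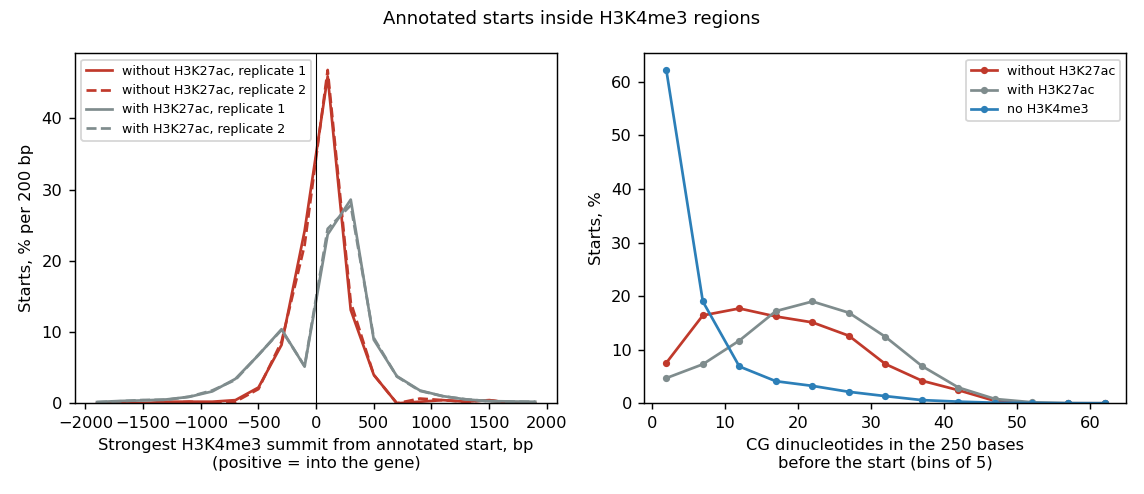
Left, distance in bp of the strongest H3K4me3 summit from the annotated start (x axis, positive into the gene) and share of starts per 200 bp (y axis, %), by replicate list; right, CG dinucleotides in the 250 bases before the start (x axis, bins of 5) and share of starts (y axis, %). Summits without H3K27ac (red) gather within 250 bp of the start, 79.2% and 81.2% against 44.7% and 44.8% with H3K27ac (grey), and CG counts without H3K27ac (median 17) lie between those with it (median 22) and those with no H3K4me3 (blue, median 3).

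Over all regions, FOXA1 showed the largest difference in percentage points of the 3 factors, while at gene ends or starts that of Pol II S5P was larger. FOXA1 was found in both lists at 495 regions without H3K27ac (19%, interval 17.5 to 20.5%), against 61.6% with it and 58.3% of all H3K4me3 regions. In the single FOXA1 lists the shares were 21.7% and 21.9% without H3K27ac and 64.7% and 65.5% with it (61.4% and 62.2% of all), so the replicates agreed far more closely than the groups. Reweighting the acetylated regions to the same width and strength left 61.5%, and the share was lower without H3K27ac in 16 of 16 classes. At gene ends or starts 53 of 780 (6.79%) carried FOXA1 without H3K27ac, against 45.8% with it and 43.8% of all there; elsewhere 442 of 1832 (24.1%) did, against 74.3%. FOXA1 peaks were also weaker, with median folds of 9.18 and 8.81 without H3K27ac and 14.6 and 14.2 with it. Among gene regions, PRR18 had FOXA1 folds of 33.2 and 30.9, ADAMTS9 had 11.5 and 12.6, CYP26B1 had 11.1 and 11.4 and GSX1 had 8.97 and 5.81. SOX5 had 6.88 and 6.37, GABRA2 had 5.22 and 6.56, PDE4D had 3.76 and 3.37 and ZNF804B had 3.55 and 4.50. The FOXA1 peaks at PRR18 thus stood apart from the other 7. None of Pol II S5P, FOXA1 and FGFR1 was found at 2054 regions without H3K27ac (78.6%), against 26.1% with it.

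Pol II S5P was found in both lists at 74 regions without H3K27ac (2.83%), against 25.7% with it and 24.0% of all. In single lists the counts were 84 and 74, or 3.22% and 2.83%, against 34.0% and 26.2% with H3K27ac and 31.6% and 24.4% of all. Of acetylated regions reweighted to the same width and strength, 2.84% had it in both lists, 6.91% in list 1 and 2.91% in list 2. The share without H3K27ac was thus below the reweighted one in list 1 and close to it in list 2. At gene ends or starts the count was 0 of 780 without H3K27ac, in each single list as well, with a Wilson upper limit of 0.49%. Regions with H3K27ac there had Pol II S5P at 51.9%, all H3K4me3 regions there at 49.2%, and acetylated ones of like width and strength at 4.42%, or 10.8% and 4.17% in the single lists. None of the 372 genes without an acetylated H3K4me3 region had Pol II S5P in the gene. Of the 112 genes unacetylated at their ends but with an acetylated region inside, 10 (8.93%) had it in the gene. Among the 12717 genes whose H3K4me3 at an end lay only in regions with H3K27ac, the share was 63.6%. These groups of genes were not matched for H3K4me3 strength.

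**Figure D4:**
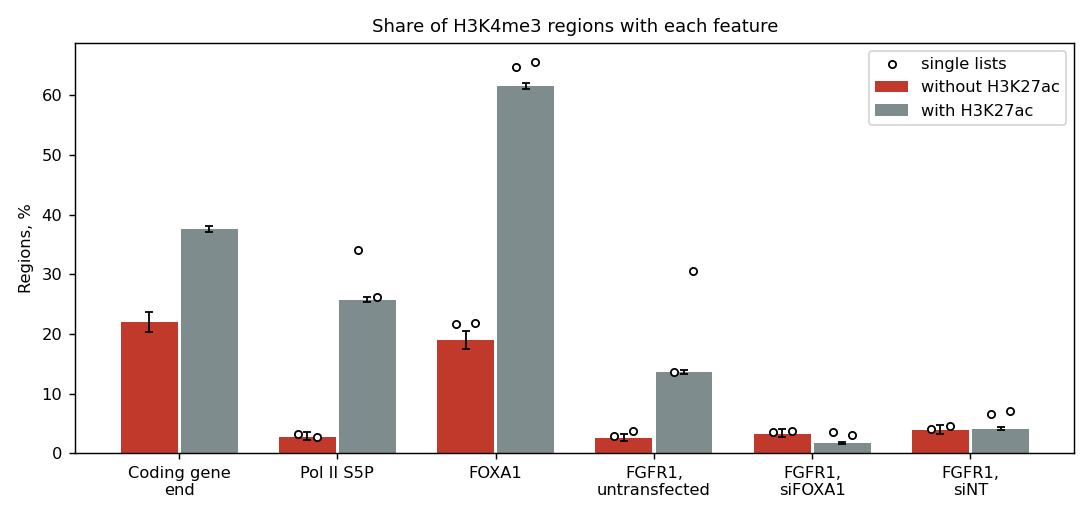
Share of regions (y axis, %) without H3K27ac (red) and with H3K27ac (grey) at a coding gene end or overlapping peaks found in both lists of each target, with 95% Wilson intervals; circles give the single replicate lists. FOXA1 separates the regions most, 19% without H3K27ac against 61.6% with it, while the bars for FGFR1 after siFOXA1 and siNT are all at or below 4.16%; the highest single list among these is at 7.10%, with H3K27ac after siNT.

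All 74 Pol II S5P-positive regions lay in 17 windows of 1 Mb, and 66 of them in 9 windows. Coordinates of a window are given from its first to its last region without H3K27ac. The windows with most were chr4:49092681-49635699 with 16, chr20:31052014-31503676 with 14, chr1:143195311-143266510 with 8, chr10:41858249-41910042 with 7 and chr16:46386884-46554886 with 6. These stretches adjoin centromeres in this assembly, where repeated sequence is common. No gene end or start lay within 1 kb of any of the 92 unacetylated regions in the 17 windows. Of those 92, 74 (80.4%) had Pol II S5P, 57 had FGFR1 in untransfected cells, 77 had FGFR1 after siFOXA1 and 82 after siNT. Of the 2520 regions outside the windows, Pol II S5P was in both lists at 0, FGFR1 at 12 (0.476%), FGFR1 after siFOXA1 at 10 and after siNT at 21. The 101 acetylated regions in the same windows had Pol II S5P at 56.4% and FGFR1 at 36.6%. The windows were drawn after the Pol II S5P positions were seen. The strongest region in them, chr16:34594475-34595653, had H3K4me3 folds of 16.7 and 15.6, Pol II S5P folds of 21.7 and 20.8 and FGFR1 folds of 21.2 and 17.8. All 14 lists give equal p-values at equal fold, so each was called against 1 background with no local term, and the part of mapping in these repeats was not tested.

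**Figure D5:**
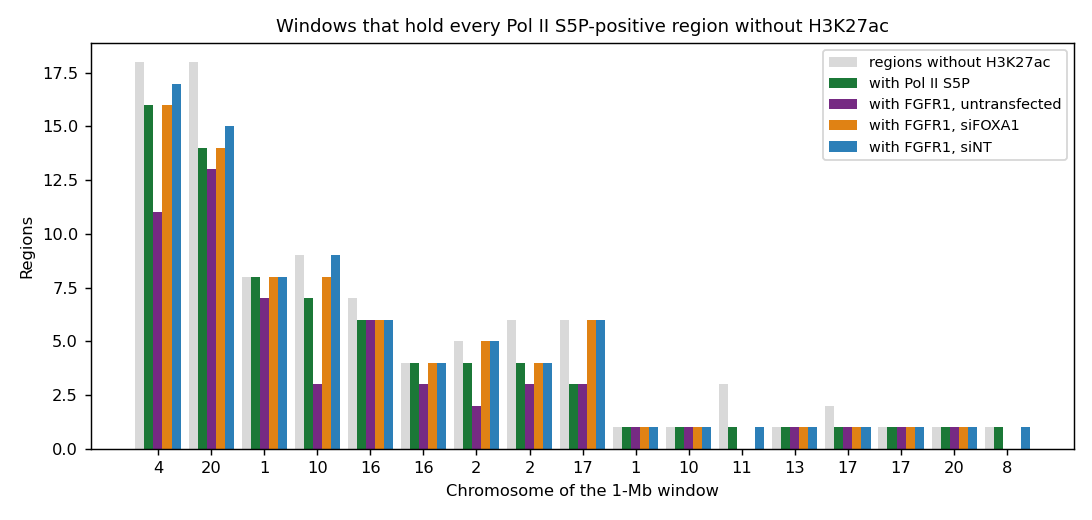
Number of H3K4me3 regions without H3K27ac (y axis) in each of the 17 1-Mb windows that hold a Pol II S5P-positive one, by chromosome (x axis; a chromosome can have several windows). Light grey bars count all such regions and coloured bars those with Pol II S5P, FGFR1 in untransfected cells, FGFR1 after siFOXA1 and FGFR1 after siNT; the windows on chromosomes 4 and 20 lead with 18 regions each, of which 16 and 14 had Pol II S5P.

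FGFR1 in untransfected cells was found at 69 regions without H3K27ac (2.64%), against 13.6% with it and 12.8% of all. Acetylated regions reweighted to the same width and strength had it at 2.42%. In single lists 78 (2.99%) and 98 (3.75%) regions without H3K27ac had FGFR1, against 13.7% and 30.5% with it and 12.9% and 28.4% of all; list 2 holds 13135 peaks and list 1 5341. The single lists differed in direction after reweighting: in list 1, 2.99% of regions without H3K27ac had FGFR1, against 2.26% of reweighted acetylated ones, and in list 2, 3.75% against 7.02%. In list 1, 67 of the 78 regions lay in the 17 windows above, and 11 of the 2520 regions outside had FGFR1. In list 2 these counts were 66 of the 98 and 32 of 2520. Of the 69, 57 also had Pol II S5P, and 12 lay outside the windows above. At gene ends or starts 4 of 780 (0.513%) had FGFR1 without H3K27ac, against 26.9% with it, 25.5% of all and 3.88% of acetylated regions of like width and strength. These 4 were NPAS4, KISS1R, FAM222A and PNMA6E. The regions at KISS1R and FAM222A lay only 203 and 134 bp from an H3K27ac peak, those at NPAS4 and PNMA6E 19387 and 63073 bp. NPAS4, an activity-induced neuronal factor, had FGFR1 folds of 8.19 and 15.1 in untransfected cells, 11.6 and 12.5 after siFOXA1 and 19.5 and 19.7 after siNT. KISS1R, the kisspeptin receptor, had 14.1 and 13.8 in untransfected cells, 14.5 and 13.4 after siFOXA1 and 15.1 and 16.3 after siNT. At FAM222A the peak reached the region in list 2 only, at a fold of 10.2.

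After transfection, FGFR1 peaks overlapped 92 and 97 unacetylated regions in the siFOXA1 lists and 109 and 119 in the siNT lists. Of all H3K4me3 regions, 3.58% and 3.15% were overlapped in the siFOXA1 lists and 6.45% and 6.9% in the siNT lists. The means were 94.5 ± 3.54 after siFOXA1 and 114 ± 7.07 after siNT (SD, n = 2 each), and the lists did not overlap in count. The exact permutation test, two-sided, gave p = 0.333, the smallest that 2 against 2 allows, so no difference could pass. In the 17 windows the counts were 77 and 82 after siFOXA1 and 81 and 84 after siNT, and outside them 15 and 15 against 28 and 35. The siFOXA1 lists were shorter, with 4332 and 5056 peaks against 6007 and 6594 after siNT. In both lists of a group, 87 regions (3.33%) had FGFR1 after siFOXA1, against 1.73% of regions with H3K27ac and 1.85% of all. After siNT the number was 103 (3.94%), against 4.16% with H3K27ac and 4.14% of all. Of these, 77 of the 87 and 82 of the 103 lay in the 17 windows. Outside the windows the order after siFOXA1 was the other way, 0.397% without H3K27ac against 1.64% with it. After siNT the shares there were 0.833% and 4.07%.

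By chromosome, the share of H3K4me3 regions without H3K27ac ran from 3.12% on chromosome 22 (25 of 800) and 4.72% on chromosome 19 (92 of 1951) to 11.4% on chromosome 10 (167 of 1459) and 12.1% on X (107 of 884). The Wilson intervals were 10.1 to 14.4% on X and 2.13 to 4.57% on chromosome 22. Both chromosomes were picked as the highest and the lowest, and neighbouring regions are not independent, so these intervals do not test a difference. Away from the windows above, the 1-Mb windows with most held 11 regions each on chromosome 6, chr6:1316493-1998438 and chr6:30006557-30482451, none within 1 kb of a gene end or start. These were 11 of 16 and 11 of 50 H3K4me3 regions in the window, so the shares differed. The window of the protocadherin clusters, chr5:141172115-141417842, held 10 of 42 H3K4me3 regions, of which 9 were at genes. That at chr17:48148204-48814949, with HOXB6, HOXB7 and HOXB8, held 9 of 43. The regions at chr7:155008194-155815732, with SHH, numbered 7 of 17. Those at chr10:100656106-100746153, with PAX2, the kidney and eye factor, numbered 7 of 28. Of the spans within 1 Mb of FGFR1, labelled as amplified, and of CCND1, the first held 0 regions without H3K27ac and 79 with it, the second 1 and 68.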

How the data were processed

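ChIP-seq peak lists were analysed as the authors deposited them, 1 list per library, with 14 lists in 7 groups and 2 lists per group. The tools Bowtie2, SAMtools, Picard and MACS2 and the build hg38 are named in the submitters' processing notes, without versions. The deposited rows hold a fold enrichment, which is a ratio on a linear scale, with its −log10 p-value and −log10 q-value. For untransfected FGFR1 the peak names carry the other replicate number, and for FOXA1 they read FOXA2; the labels were followed. Read totals are not in peak lists, so depth is unknown here. Of the 21 samples, 7 inputs had no list used here.

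Overlapping rows of a list were merged, and a region needed a peak of both lists sharing at least 1 bp. Genes came from RefSeq GRCh38.p14 (19974 protein-coding genes, ends within 1 kb) and 34961 annotated starts, which cover 79.2% of the coding genes. Chromosomes 1 to 22 and X were kept, leaving out 0.0227% to 2.74% of a list's rows. Shares carry 95% Wilson intervals. For reweighting, regions with H3K27ac inside the range of those without were weighted to their 16 classes (4 of width by 4 of mean percentile). Named genes were the 12 strongest, the 8 widest, the 8 strongest with each of Pol II S5P, FOXA1 and FGFR1, up to 6 of each gene list and the 5 strongest away from genes; others were named after their values were seen. Regions and gene lists were chosen with earlier results of these data known. Overlap code was tested on simulated data. Python 3.11.15, pandas 2.3.3, NumPy 2.4.6, SciPy 1.17.1 and Matplotlib 3.10.9 were used.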

Additional observations from a re-analysis of the deposited data

How the results depend on the processing

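The number of regions without H3K27ac, 2612, ranged over 2282 to 3616 under all alternatives and over 2989 to 3616 when 1 H3K4me3 or H3K27ac list was left out. Of 67 recomputed differences in shares, without minus with H3K27ac, 65 stayed below 0. In percentage points, the main differences were -15.6 at gene ends, -22.9 for Pol II S5P, -42.6 for FOXA1 and -11.0 for FGFR1. Reweighting to width and strength turned gene ends to 10.2 and FGFR1 to 0.22, and left Pol II S5P at -0.01 and FOXA1 at -42.5. In single lists, FGFR1 list 2 stayed lower, at 3.75% without H3K27ac against 7.02% reweighted, as did Pol II S5P list 1, at 3.22% against 6.91%. Restricted to gene ends or starts as well, an alternative chosen after seeing the data, it gave -4.42 for Pol II S5P, -35.4 for FOXA1 and -3.37 for FGFR1.

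Gene ends moved to -17.9 with H3K4me3 at a −log10 q of at least 5, -18.0 with a reciprocal overlap of 50%, -18.5 with a 500 bp window and -13.3 with a 3 kb window. FOXA1 moved to -41.4 with the reciprocal overlap, -43.3 with no H3K27ac within 1 kb, -40.3 where only H3K27ac of both lists counted, -39.9 where only H3K27ac at a −log10 q of at least 5 counted and -41.4 with stricter FOXA1 peaks. At coding gene ends alone the differences were -56.0 for Pol II S5P, -39.4 for FOXA1 and -28.4 for FGFR1, and away from them -3.84 for Pol II S5P, -48.8 for FOXA1 and -1.16 for FGFR1. Leaving out 1 list at a time gave -17.2 to -14.1 at gene ends, -30.8 to -19.3 for Pol II S5P, -43.6 to -40.7 for FOXA1 and -26.7 to -9.50 for FGFR1, the last without FGFR1 replicate 1 at -26.7. Outside the 17 windows, also chosen after seeing the data, FGFR1 was at -13.1. No paired analysis was possible because the results are overlaps of peak lists and come from no model across replicates. Peak lists hold no depth or values below the caller's threshold, so an unlisted mark may be a weak one.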
